A study of Mus musculus with 9 samples.

Results

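The genes described here encode the protein subunits of the cytosolic ribosome. Their members were all single-entry genes of the deposited expression table with an Rpl, Rps or Rplp symbol followed by a number, with or without a paralogue suffix. This gave 82 genes out of 23045 genes with 1 entry each (23813 entries in all), of which 51 belong to the large subunit and 31 to the small subunit. Transcript levels came from RNA sequencing of spermatogonia from testes of postnatal day 6 mouse pups. The mice were LT-11B6, a single Id4-eGfp transgenic line on C57BL/6, in which EGFP reports the Id4 gene of undifferentiated spermatogonia. The 3 groups all carried this transgene: EGFP-positive cells sorted as a whole (all ID4-EGFP+), EGFP-positive cells in the top 1/3 of surface TSPAN8 staining (TSPAN8-high) and those in the bottom 1/3 (TSPAN8-low), with 3 libraries each. Each library was a separate preparation of cells, and the sources used here do not say whether preparations came from separate litters, so p-values measure the spread between preparations.

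A cytosolic ribosome joins a small subunit, which reads the messenger RNA, to a large subunit, which forms the peptide bond. Most core ribosomal proteins are needed in equal numbers. The messenger RNAs of the core proteins are short, abundant and usually start in a run of pyrimidines through which growth signals control their translation. Several members have paralogues, and some of these, such as Rpl10l and Rpl39l, are known for their roles in male germ cells. The sorted fractions were compared with each other and with the whole population, each subunit apart and each paralogue beside its parent; TSPAN8 is a surface protein of the tetraspanin family.

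A pyrimidine run at the transcription start is a known feature of many genes of this family, so start regions are shown first. They are those of 4 of the 7 members that pass a test between TSPAN8-high and TSPAN8-low below. No start window was obtained for the others, Rpl3, Rpl39 and Rpl30. Each is 60 bases long, from 45 bases before the annotated start, and is taken from RefSeq (GRCm38.p6). Capitals mark the longest run of C and T in the window, or both where 2 are equally long.
Rps27l: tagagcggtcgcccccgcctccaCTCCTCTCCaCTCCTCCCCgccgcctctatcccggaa
Rps27: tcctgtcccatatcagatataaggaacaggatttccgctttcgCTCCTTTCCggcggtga
Rpl22l1: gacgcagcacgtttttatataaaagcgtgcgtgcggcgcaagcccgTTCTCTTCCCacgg
Rps4x: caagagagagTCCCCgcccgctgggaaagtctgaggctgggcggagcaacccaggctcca

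The windows lie at chr9:66946041-66946100 (plus strand), chr3:90213634-90213693 (minus strand), chr3:28805463-28805522 (plus strand) and chrX:102189377-102189436 (minus strand), in that order. In Rps27 the run of 9 pyrimidines spans the start itself, and in Rpl22l1 a run of 10 begins 1 base after it. For Rpl22l1 this holds for the RefSeq start only, which lies 72 bases from the start annotated in GENCODE. The paralogue Rps27l has 2 runs of 9, which begin 22 and 12 bases before the start. In Rps4x the longest run has 5 pyrimidines and begins 35 bases before the start, with no tract of the kind counted next. A promoter was matched for 62 of the 82 members. Of these, 34 (54.8%) had, within 10 bases of the start, a C followed by 4 pyrimidines on the strand that reads as the RNA. The shares were 30.6% of 27025 promoters in the RefSeq table and 31.6% of the 8335 whose gene was tested. The letters CCGGAAG, on either strand of the 300-base promoter, were present in 23 members (37.1%), against 9.17% of all promoters and 20.3% of those of tested genes. AAGATGGC was present in 5 members (8.06%), against 2.9% and 5.21%. A match is a description of letters and not a measured binding site.

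Levels are given as FPKM, fragments scaled by transcript length and by the mapped fragments of the library, so that they can be compared between genes. All 82 members were among the 11142 genes tested, those that reached 1 FPKM in 3 or more libraries. Members held 17 of the 50 highest mean levels among tested genes, 33 of the highest 100 and 51 of the highest 200. The median member of the large subunit had a mean of 855 FPKM and that of the small subunit 1430 FPKM. The highest large subunit genes were Rpl41 (3373 FPKM), Rpl38 (3210.3 FPKM) and Rplp2 (2285 FPKM), and high levels among small subunit genes were those of Rps28 (3278 FPKM) and Rps14 (2450.2 FPKM). At the other end were Rpl3l (3.0 FPKM), the paralogue of Rpl3 known from striated muscle, then Rpl22 (54.3 FPKM) and Rpl7l1 (99.4 FPKM). The lowest small subunit genes were Rps15a (74.8 FPKM), Rps4x (112 FPKM) and Rps27 (335 FPKM). Core members whose proteins are needed in equal numbers also differed widely in FPKM, as between Rps28 (3278 FPKM) and Rps4x (112 FPKM). Ribosomal protein genes have many processed pseudogenes, and the sources used here do not say how reads shared with them were assigned, so the order of levels between genes is less certain than the comparison of 1 gene between libraries.

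**Figure D1:**
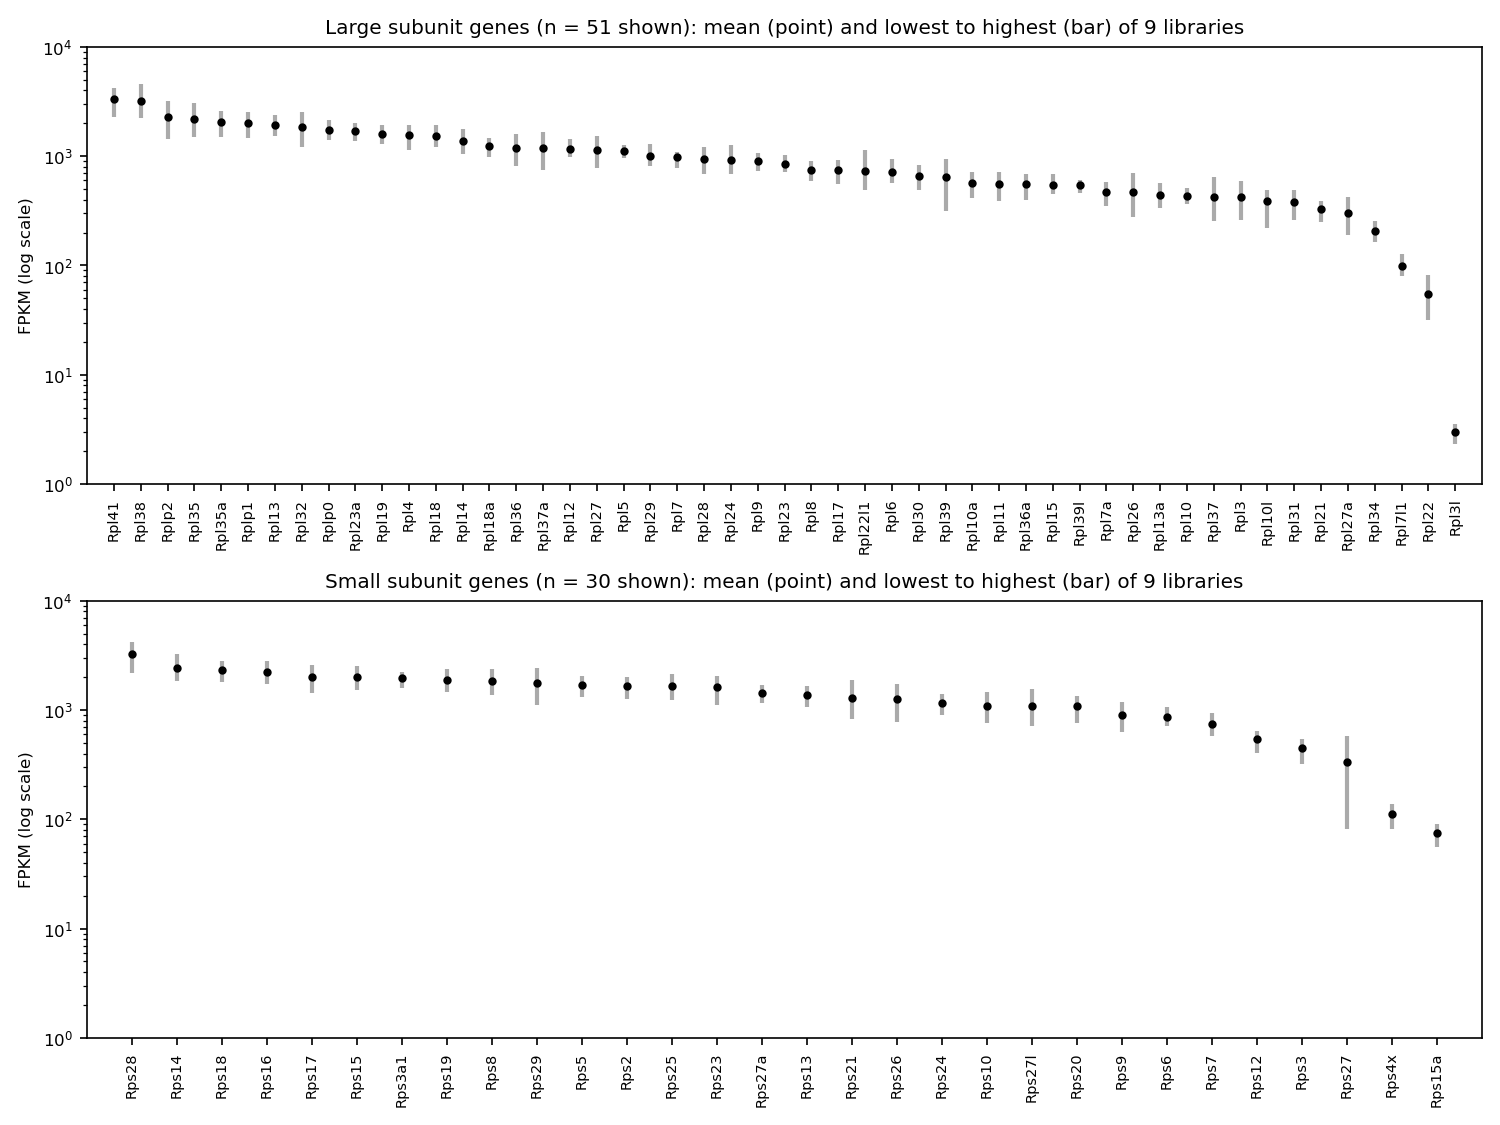
FPKM (log axis) of the 51 large and 30 small subunit genes shown, ordered by mean; points are means and bars run from the lowest to the highest of the 9 libraries. Only 3 large and 1 small subunit genes have means under 100 FPKM, Rpl3l lies at 3.0, and Rps27 has the longest bar, from 82.3 to 574.

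The members were high or low together from library to library, within groups as well as between them. The members made up 12.2%, 12.8% and 14.7% of the summed FPKM of tested genes in the all ID4-EGFP+ libraries (replicates 1, 2 and 3), 10.2%, 12.1% and 13.1% in TSPAN8-high and 10.2%, 13.6% and 13.1% in TSPAN8-low. The ranges of all 3 groups overlap, and the means were 13.2% ± 1.31, 11.8% ± 1.47 and 12.3% ± 1.84 (SD, n = 3 each). The lowest values were those of replicate 1 in both sorted fractions. The median deviation of large subunit genes from their mean over the 9 libraries, on the log2(FPKM + 1) scale, was -0.30 in TSPAN8-high replicate 1 and -0.39 in TSPAN8-low replicate 1, and 0.34 in all ID4-EGFP+ replicate 3. Small subunit genes had -0.36, -0.34 and 0.31 in the same libraries. In these 3 libraries, 53 other abundant genes with messenger RNAs of up to 600 bases had median deviations of -0.32, -0.29 and 0.33, and 16 abundant genes with messenger RNAs of over 4000 bases had 0.16, 0.21 and -0.27. In these 3 libraries short abundant genes outside the family deviated in the direction of the members and long ones in the other. The other libraries were less uniform. In TSPAN8-high replicate 3 the members had 0.09 and 0.07 and short genes -0.02, in TSPAN8-high replicate 2 the members (-0.07 and -0.04) and long genes (-0.04) had the same sign, and in TSPAN8-low replicate 3 so did the members (0.18 and 0.14) and long genes (0.07). The part of transcript length in the level of the members was not tested. In bulk samples fewer cells of a type and less RNA per cell cannot be told apart.

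**Figure D2:**
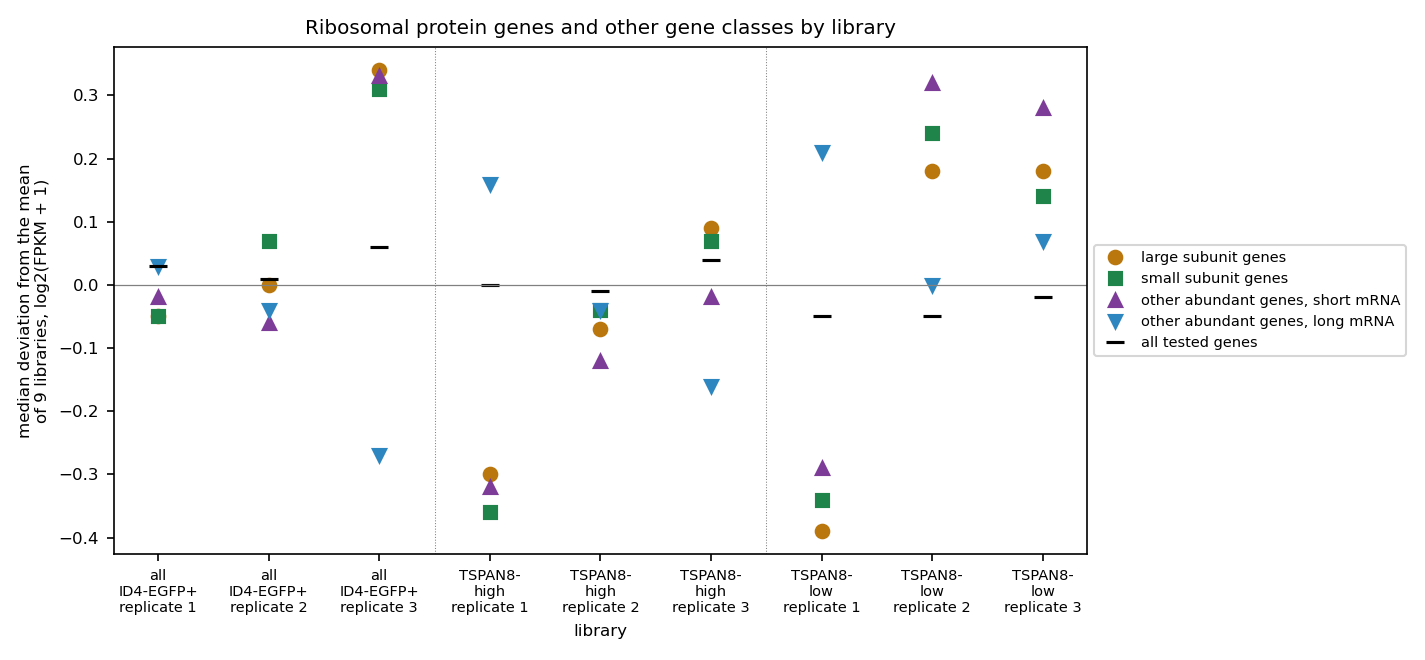
Median deviation from the 9-library mean on the log2(FPKM + 1) scale, for each library, of large and small subunit genes, of other abundant genes with short or long messenger RNAs, and of all tested genes. Both subunits lie close to the short genes in the 3 most extreme libraries, at -0.39 and -0.34 in TSPAN8-low replicate 1 and 0.34 and 0.31 in all ID4-EGFP+ replicate 3, but have the opposite sign in TSPAN8-high replicate 3.

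The balance between the subunits was narrower than the level of the set. Summed FPKM of the small subunit over that of the large subunit was 0.929, 0.920 and 0.903 in all ID4-EGFP+, 0.885, 0.883 and 0.892 in TSPAN8-high and 0.945, 0.930 and 0.917 in TSPAN8-low. The TSPAN8-high values lay below all others. Without the 7 members that pass a test between TSPAN8-high and TSPAN8-low below, the ratio was 0.908 to 0.911 in TSPAN8-high, 0.914 to 0.937 in all ID4-EGFP+ and 0.925 to 0.95 in TSPAN8-low, still with no overlap of TSPAN8-high and the others. The ratio of the subunits' median genes did overlap, with 1.59 to 1.73 in TSPAN8-high and 1.67 to 1.7 in TSPAN8-low, so the separation seen in the sums was not seen in the medians.

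Between the TSPAN8-high and TSPAN8-low fractions, most ribosomal protein genes did not pass the test, and the exceptions were individual genes that moved in opposite directions. Differences were tested with limma on log2(FPKM + 1), and the threshold was 0.05 for the p adjusted by Benjamini-Hochberg over all tested genes. None of the 51 large subunit genes passed (2 had an unadjusted p under 0.05), and of the 31 small subunit genes Rps4x was higher and Rps27l lower in TSPAN8-high. Over all tested genes 5.56% passed, 3.41% higher and 2.15% lower. The median log2 difference was -0.10 for the large subunit, with 39 of 51 genes below 0, and -0.15 for the small subunit, with 22 of 31 below 0, beside 0.05 for all tested genes. These medians rest on single libraries, since without TSPAN8-high replicate 1 they were 0.00 and 0.01, and without TSPAN8-low replicate 2 they were -0.01 and -0.03. They also depend on the scaling, with -0.20 and -0.25 when libraries were set to a common median, -0.02 for both with the authors' normalized values and -0.00 for both with quantile normalization. Within replicate numbers 1, 2 and 3 the medians were 0.03, -0.27 and -0.07 for the large subunit and -0.01, -0.30 and -0.07 for the small one.

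Libraries with the same replicate number deviated together, so a second limma fit had the replicate number as a block. With the block, 3 large subunit genes passed as higher in TSPAN8-high (Rpl3, Rpl39 and Rpl22l1) and 1 as lower (Rpl30), and 2 small subunit genes passed as higher (Rps4x and Rps27) and 1 as lower (Rps27l). These 7 of 82 members stand beside 19.1% of all tested genes, 11.8% higher and 7.34% lower. The share of members that passed was therefore below the background in both fits.

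**Figure D3:**
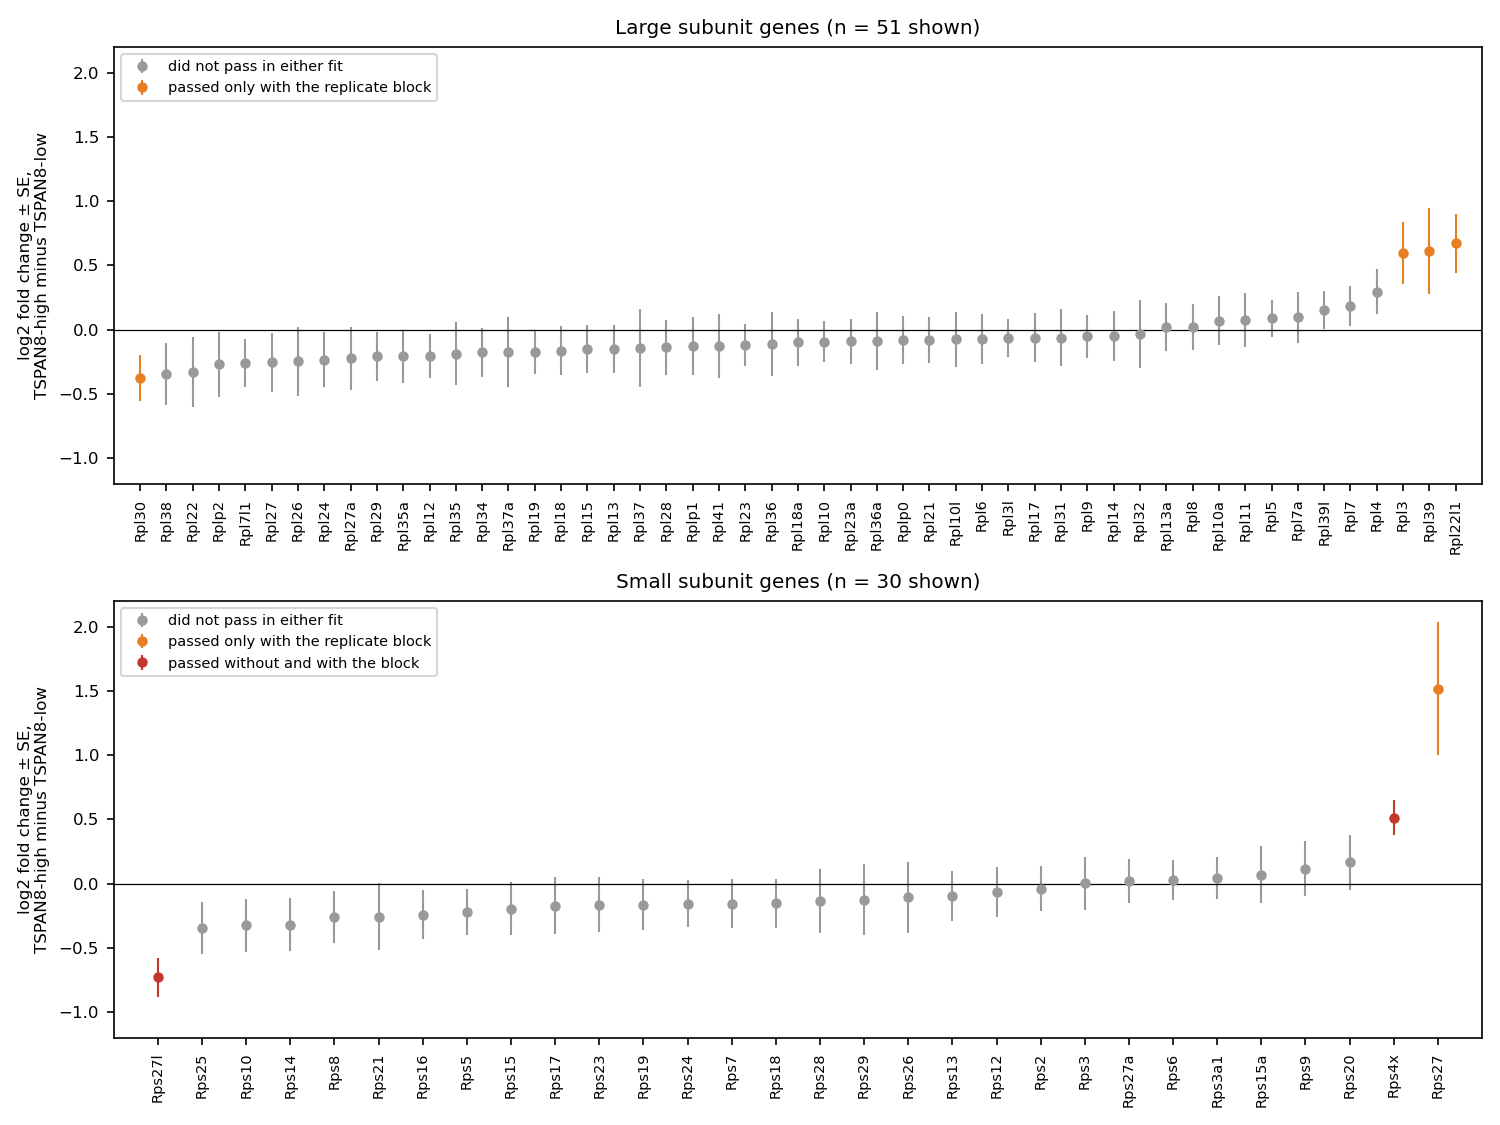
Log2 fold change ± SE of each member between TSPAN8-high and TSPAN8-low (limma without the block, 3 libraries per group), with the 51 large subunit genes above and 30 small subunit genes below. Most members lie between -0.4 and 0.3, Rps27l lies at -0.73, and Rps27, at 1.52, has the largest SE.

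Rps27l and Rps27 encode near-identical small subunit proteins with a zinc finger, and Rps27l is known as a target of p53. Rps27l was at 713, 879 and 852 FPKM in TSPAN8-high, 1068, 1125 and 1147 FPKM in all ID4-EGFP+ and 1244, 1561 and 1257 FPKM in TSPAN8-low. The 3 groups did not overlap, with TSPAN8-high lowest and TSPAN8-low highest. From TSPAN8-low to TSPAN8-high it fell by 0.73 ± 0.15 (SE) on the log2 scale, a ratio of means of 0.602 (limma adjusted p = 0.0187, and 0.00149 with the block). The call without the block was lost when TSPAN8-high replicate 1, TSPAN8-high replicate 2 or TSPAN8-low replicate 2 was left out (limma adjusted p up to 0.074), and with the block it was kept without any single library (up to 0.0186).

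Rps27 was at 363, 457 and 574 FPKM in TSPAN8-high, 244, 346 and 347 FPKM in all ID4-EGFP+, and 82.3, 506 and 95.9 FPKM in TSPAN8-low. TSPAN8-low replicate 2 stood at the level of TSPAN8-high, while the other TSPAN8-low libraries were lower than every other library. The log2 difference between the fractions was 1.52 ± 0.52 (limma adjusted p = 0.111, and 0.0206 with the block). Leaving out replicate 1 or 3 of either fraction ended the call made with the block (limma adjusted p up to 0.119).

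As a share of the pair, Rps27l made up 66.3%, 65.8% and 59.7% in TSPAN8-high, 81.4%, 76.5% and 76.7% in all ID4-EGFP+, and 93.8%, 75.5% and 92.9% in TSPAN8-low. TSPAN8-high lay below all other libraries. The log2 ratio of Rps27l to Rps27 differed by -2.26 between TSPAN8-high and TSPAN8-low and by -1.02 between TSPAN8-high and all ID4-EGFP+. An exact two-sided permutation test gave p = 0.1 for both, the smallest value 3 against 3 libraries allow, and 0.45 adjusted over the 18 comparisons of the 6 pairs. The coding sequences of the pair are 76.1% identical, and their longest identical stretch is 11 bases, so reads of the pair can be told apart.

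Rps4x, the X-linked gene of a small subunit protein, showed the opposite order. It was at 129, 123 and 137 FPKM in TSPAN8-high, 106, 118 and 119 FPKM in all ID4-EGFP+ and 81.1, 93.4 and 97.9 FPKM in TSPAN8-low. The groups did not overlap. The log2 difference between the fractions was 0.51 ± 0.14 (limma adjusted p = 0.0483, and 0.00665 with the block), but without the block leaving out any 1 of the 9 libraries ended the call (up to 0.155), and with it leaving out TSPAN8-high replicate 1 did (0.0526). Rps27l and Rps4x were the 2 members whose libraries did not overlap between TSPAN8-high and TSPAN8-low, beside 25.6% of all tested genes.

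Among large subunit genes, Rpl22l1 is the paralogue of Rpl22, an RNA-binding protein that represses it in other cells. Rpl22l1 was at 1029, 1146 and 775 FPKM in TSPAN8-high, 506, 596 and 655 FPKM in all ID4-EGFP+ and 522, 886 and 488 FPKM in TSPAN8-low. TSPAN8-high lay above all ID4-EGFP+ and overlapped with TSPAN8-low, whose replicate 2 was above the lowest TSPAN8-high library. The log2 difference between the fractions was 0.67 ± 0.23 (limma adjusted p = 0.114, and 0.0199 with the block), and the call with the block ended when replicate 1 or 2 of TSPAN8-high, or replicate 1 or 3 of TSPAN8-low, was left out (up to 0.114). Rpl22 itself was at 31.5 to 54.9 FPKM in TSPAN8-high, 47.1 to 81.8 FPKM in all ID4-EGFP+ and 40.4 to 71.3 FPKM in TSPAN8-low, and these groups overlap. Rpl22l1 thus had the higher FPKM of the pair in every library, though the order of levels between genes is less certain, as said above. Its share of the pair was 93.4% to 97.0% in TSPAN8-high, 88.9% to 92.0% in all ID4-EGFP+ and 89.0% to 92.8% in TSPAN8-low. The TSPAN8-high shares lay above the others, with an exact two-sided permutation p = 0.1 for the log2 ratio against either group and 0.45 adjusted.

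Rpl3 lies near the peptidyl transferase centre and Rpl39 at the peptide exit tunnel. Rpl3 was at 342, 536 and 589 FPKM in TSPAN8-high, 345, 576 and 487 FPKM in all ID4-EGFP+ and 258, 386 and 313 FPKM in TSPAN8-low. Rpl39 was at 509, 945 and 853 FPKM in TSPAN8-high, 441, 868 and 595 FPKM in all ID4-EGFP+ and 314, 754 and 482 FPKM in TSPAN8-low. The groups overlap for both genes, but in each replicate number TSPAN8-high was above TSPAN8-low. The log2 differences were 0.60 ± 0.24 for Rpl3 (limma adjusted p = 0.176, and 0.00634 with the block) and 0.62 ± 0.33 for Rpl39 (0.307, and 0.00573 with the block), and both calls with the block were kept without any single library. Rpl30 was at 486, 533 and 641 FPKM in TSPAN8-high, 648, 591 and 829 FPKM in all ID4-EGFP+ and 602, 750.2 and 799 FPKM in TSPAN8-low. Its log2 difference was -0.37 ± 0.18 (limma adjusted p = 0.248, and 0.0424 with the block), and the call with the block ended without all ID4-EGFP+ replicate 3, any TSPAN8-high library, or replicate 2 or 3 of TSPAN8-low (up to 0.184).

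**Figure D4:**
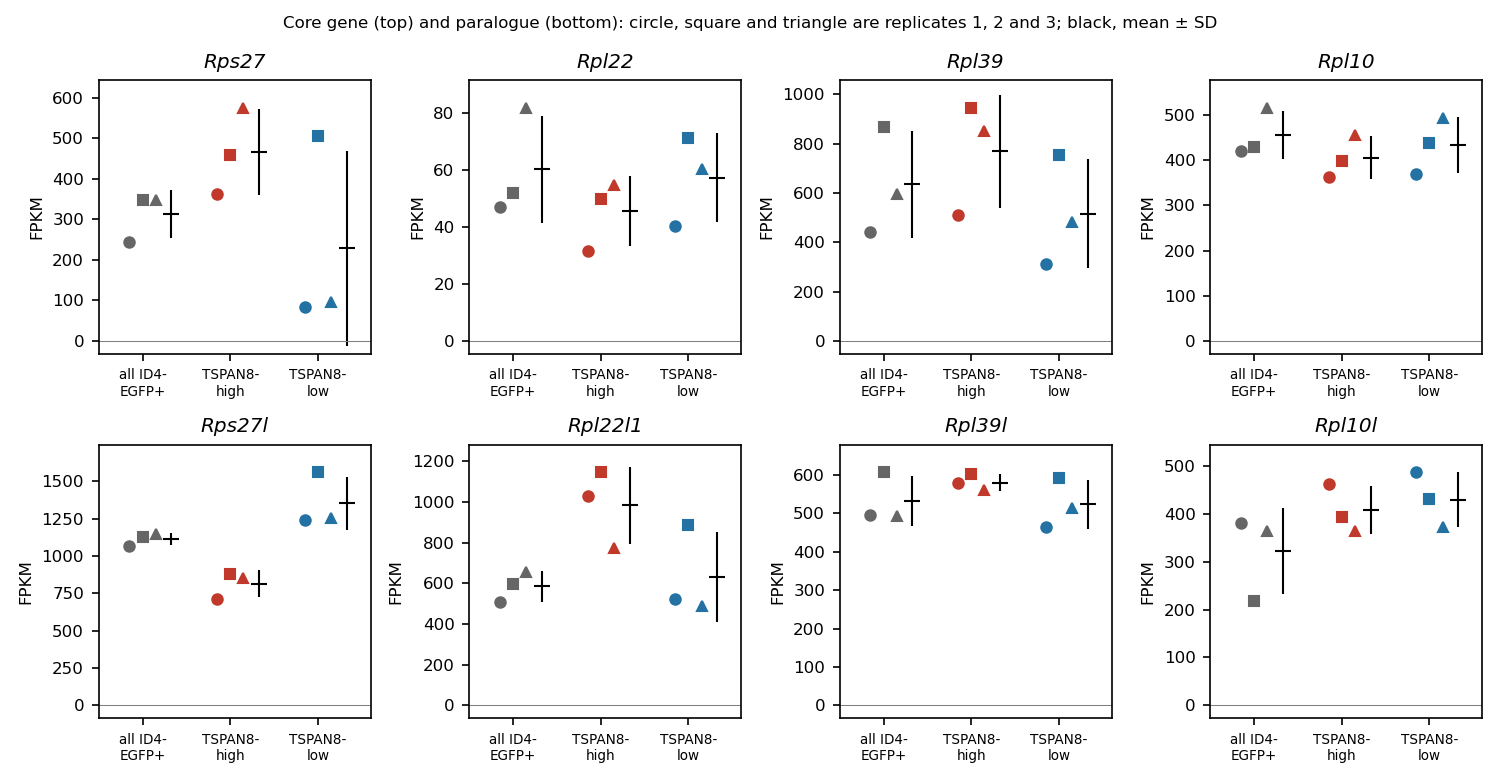
FPKM of 4 core genes (top row) and their paralogues (bottom row) in each library; colours are groups, symbols are replicate numbers, and black marks are the mean ± SD of 3 libraries. Rps27l is lowest in TSPAN8-high, from 713 to 879, and Rps27 in TSPAN8-low is split between 506 in replicate 2 and under 100 in the others.

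The germ cell paralogues Rpl10l and Rpl39l were both abundant, at levels close to those of their X-linked parents. Rpl10l, which takes the place of Rpl10 in meiosis when the X chromosome is silenced, was at 463, 394 and 365 FPKM in TSPAN8-high, 381, 219 and 365 FPKM in all ID4-EGFP+ and 487, 430.2 and 372 FPKM in TSPAN8-low. Rpl10 was at 363 to 516 FPKM over the 9 libraries. Rpl10l made up 44.4% to 56.0% of the pair in TSPAN8-high, 33.7% to 47.5% in all ID4-EGFP+ and 42.9% to 56.8% in TSPAN8-low, and these ranges overlap. The log2 ratio differed by 0.02 between the fractions (exact two-sided permutation p = 0.9), and by 0.54 and 0.53 between TSPAN8-high or TSPAN8-low and all ID4-EGFP+ (exact permutation p = 0.2 for both, 0.45 adjusted). Rpl39l was at 465 to 607 FPKM over all libraries and made up 38.9% to 53.2% of its pair in TSPAN8-high, 41.1% to 52.9% in all ID4-EGFP+ and 44.0% to 59.7% in TSPAN8-low. Neither paralogue passed in any of the 3 comparisons, with or without the block. The coding sequences are 84.8% identical for Rpl10 and Rpl10l and 85.3% for Rpl39 and Rpl39l, with longest identical stretches of 23 and 38 bases. Rpl7l1 made up 6.81% to 8.72% of its pair in TSPAN8-high, 6.95% to 11.4% in all ID4-EGFP+ and 8.28% to 11.4% in TSPAN8-low, and Rpl3l stayed at or under 1.08% of its pair in every library.

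Members were also grouped by their place in the ribosome. Calls were made only with the block and only for Rpl39 among the 9 genes of the peptide exit tunnel and its mouth, which ranged from -0.33 to 0.62, and for Rpl3 among the 3 genes near the peptidyl transferase centre, which ranged from -0.09 to 0.60. The P stalk, which recruits elongation factors, had log2 differences of -0.27 for Rplp2, -0.13 for Rplp1 and -0.08 for Rplp0, and none passed in either fit. The 5S ribonucleoprotein genes Rpl5 and Rpl11, whose free proteins bind Mdm2, had 0.09 and 0.07. The 6 genes at the decoding site and mRNA path ranged from -0.20 to 0.00, and none passed in either fit. Rps6, the S6 kinase substrate, was at 761, 854 and 902 FPKM in TSPAN8-high and 708, 857 and 913 FPKM in TSPAN8-low, a log2 difference of 0.03 ± 0.16. Rps27a, made as a fusion with ubiquitin, differed by 0.02 ± 0.17. The 9 members mutated in Diamond-Blackfan anaemia ranged from -0.33 to 0.09, with none passing.

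Against all ID4-EGFP+, TSPAN8-high had lower values for most members, and no member passed without the block. In limma, 0 of 51 large and 0 of 31 small subunit genes passed, with 1 unadjusted p under 0.05 in each, beside 0.144% of all tested genes, 0.0269% higher and 0.117% lower. The median log2 difference was -0.19 for the large subunit (44 of 51 below 0) and -0.23 for the small subunit (29 of 31 below 0), beside -0.01 for all tested genes. Both medians were below 0 in each replicate number, from -0.31 to -0.07 and from -0.35 to -0.11. The all ID4-EGFP+ libraries were uneven. Replicate 3 had median deviations of 0.34 and 0.31, against -0.05 for both subunits in replicate 1 and 0.00 and 0.07 in replicate 2. How far the medians of this comparison depend on that library or on the scaling is not given here. With the block Rpl22l1 passed as higher in TSPAN8-high (log2 difference 0.74, limma adjusted p = 0.0417), beside 3.09% of all tested genes, 1.23% higher and 1.86% lower. That call ended without replicate 1 or 2 of all ID4-EGFP+, any TSPAN8-high library or TSPAN8-low replicate 3 (limma adjusted p up to 0.277). Rps27l was lower by the same fit with an adjusted p of 0.0522 and did not pass. The 3 values did not overlap for 6 of 82 members, beside 15.1% of all tested genes.

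Between TSPAN8-low and all ID4-EGFP+ no member passed, with or without the block (2 of 82 had an unadjusted p under 0.05 in limma without it, and 7 with it). Over all tested genes the shares were 0.0% without the block and 0.0449% with it (0.00898% higher and 0.0359% lower). The medians were -0.09 and -0.08, and replicate 2 stood apart from the others, at 0.20 and 0.22 against -0.34 and -0.31 in replicate 1 and -0.16 and -0.15 in replicate 3. The 3 comparisons share libraries, so their values are not independent. Rps27l and Rps4x were the 2 members that did not overlap here, beside 14.3% of all tested genes, and their log2 differences were 0.27 ± 0.15 and -0.33 ± 0.14 (limma adjusted p = 0.623 and 0.6).

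Genes that work with the ribosome were taken from lists of the same translation pathway. None of 43 translation factors and none of 59 tested ribosome assembly genes passed between TSPAN8-high and TSPAN8-low in limma without the block (5 unadjusted p under 0.05 in each), and their median log2 differences were 0.07 and 0.10. With the block, 4 translation factors were higher in TSPAN8-high and 1 lower, and 4 assembly genes were higher and 3 lower, shares of each list below the 19.1% of all tested genes that passed in the same fit. The factors that were higher were the elongation factor Eef2 (log2 difference 0.41, adjusted p = 0.0265) and the initiation factors Eif3c (0.55, 0.0126), Eif4b and Eif2b5, and lower was Eef1e1. The assembly genes were Ubtf, Polr1b, Nop14 and Tsr1 (higher) and Nhp2, Nop10 and Nip7 (lower). Among 9 tested regulators of ribosomal protein messenger RNAs, 0 passed without the block. With it, 1 was higher, the S6 kinase gene Rps6kb2 (0.90, limma adjusted p = 0.0069). The translation repressor Eif4ebp1 was lower (-0.54, 0.0164). These calls stand beside 11.8% higher and 7.34% lower of all tested genes in that fit. Eif4ebp1 was at 423, 377 and 461 FPKM in TSPAN8-high and 531, 569.8 and 752 FPKM in TSPAN8-low. The fractions did not overlap, which held for 25.6% of all tested genes. Of the genes of ribosomal proteins whose symbols the naming rule misses, Fau, Rpsa, Rpl36al and Gnb2l1 had log2 differences of -0.29, 0.11, -0.35 and -0.16, and none of these 4 passed in either fit.

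The libraries were those of germ cells, with Ddx4 at 347 to 652 FPKM and Dazl at 1148 to 1849 FPKM, and Tspan8 was at 28.8 to 43.7 FPKM in TSPAN8-high and 6.65 to 11.8 FPKM in TSPAN8-low. Germ cell markers differed between the fractions. Of the 8 tested, 3 passed as higher in TSPAN8-high without the block, beside 3.41% of all tested genes. Tspan8 is among the 8, and the fractions were sorted on its protein. Its difference therefore follows from the sort and says nothing about the other markers. With the block 5 passed as higher (Ddx4, Gfra1, Id4, Zbtb16 and the sort gene Tspan8), beside 11.8%, and 0 passed as lower in either fit. Markers of Sertoli cells, the somatic neighbours of spermatogonia, also moved with the fractions. The summed level of the 10 Sertoli markers in the table was 68.3, 85.0 and 194 FPKM in TSPAN8-high, 9.67, 38.8 and 83.9 FPKM in all ID4-EGFP+ and 5.87, 15.5 and 119 FPKM in TSPAN8-low. TSPAN8-high was above TSPAN8-low in each replicate number. With the block all 4 tested Sertoli markers (Clu, Cst12, Cst9 and Inha) passed as higher in TSPAN8-high, beside 11.8% of all tested genes. Without the block 0 of the 4 passed. The defining markers Sox9 and Amh stayed at or under 0.197 and 0.714 FPKM. Summed leukocyte markers were at 13.8, 17.6 and 22.8 FPKM in TSPAN8-high and 6.97, 10.8 and 15 FPKM in TSPAN8-low, and summed peritubular myoid markers at 3.54, 3.3 and 7.17 FPKM and 1.4, 2.12 and 3.59 FPKM, both higher in TSPAN8-high in each replicate number. Of the 2 tested leukocyte markers, 1 had a log2 difference above 0 and 1 below 0. Both of the 2 tested myoid markers were above 0. Of all these, 0 passed without the block. With it 1 passed, the macrophage gene Cd68 (log2 difference 0.59, limma adjusted p = 0.0384). The part of these transcripts in the differences of Rps27l, Rps27, Rps4x, Rpl22l1, Rpl3, Rpl39 and Rpl30 was not tested. How many reads lie behind each value is unknown, since no read counts were used here.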

How the data were processed

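Expression was measured by RNA sequencing in 9 libraries, 3 per group. The authors deposited FPKM values per gene, which were tested here, and a table of normalized signal values, used as an alternative. The submitters' processing notes name Cufflinks, TopHat2 2.0.12, Bowtie2 2.2.3.0, FastQC and build mm9. The annotation and the normalization: not given in the sources used here. Per the labels' protocols, SMART-Seq v4 cDNA was made into Nextera XT libraries, which do not mark strand. Symbols on more than 1 entry (262) were left out. Genes with 1 FPKM or more in 3 or more libraries (11142) entered a limma fit (version 3.58.1, R 4.3.3, trend, two-sided) on log2(FPKM + 1), in 1 fit of 3 groups, with Benjamini-Hochberg adjustment. The fit without the block was tested on simulated data in which libraries varied independently. The fit with the block was not tested in this way. Fold changes on this scale understate the change of low genes.

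Deviations from the group means correlated between libraries that share a replicate number (r of 0.26 to 0.48 over 9 pairs, against -0.46 to 0.28 over 18 other pairs), so the number was also fitted as a block; the pairing comes from the data. Messenger RNA length and coding identity came from GENCODE M21. Exact permutation tests used scipy 1.17.1 in Python 3.11.15. The members and lists were chosen with earlier results of these data known. Named members were those that passed or, with none, the 2 with the smallest p in each subunit and direction; the 3 highest and 3 lowest of each subunit; both copies of paralogue pairs; the P stalk, Rps6 and Rps27a. Other lists gave up to 4 genes each, by p. The results of 2 genes are not reported here, and 1 small subunit gene is left out of the plots. Alternatives covered the pseudocount (0.1), the filter (none, or 5 FPKM), scaling, the block and leaving out libraries.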

Additional observations from a re-analysis of the deposited data

How the results depend on the processing

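Between TSPAN8-high and TSPAN8-low, the replicate block raised the large subunit genes that passed from 0 to 4, and the block with a common median gave 3. Leaving out 1 library or number gave 0 to 1 without the block and 2 to 4 with it. For the small subunit, 2 passed without the block. The pseudocount of 0.1, the minimum of 5 FPKM and the common median gave 1 each, no filter gave 0, and the block with a common median gave 4. Leaving out libraries gave 0 to 1, and 1 to 5 with the block. Translation factors rose from 0 to 5 with the block, 2 with the block and a common median, and 1 to 8 in its leave-one-out fits. Ribosome assembly genes rose from 0 to 7 with the block, 5 with the block and a common median, 1 with no filter, 1 with the common median and 1 to 15 in leave-one-out fits. Between TSPAN8-high and all ID4-EGFP+, the block gave 1 large subunit gene, and leave-one-out fits with it gave 1 to 7 large and 2 to 4 small subunit genes where any passed. Between TSPAN8-low and all ID4-EGFP+, 1 small subunit gene passed in 1 leave-one-out fit with the block. In that comparison Rpl30 (0.06) ranged from -0.08 to 0.20 when libraries or numbers were left out. Rps15 reversed to -0.05 with the authors' normalized values and with quantile normalization, and ranged from -0.19 to 0.24 when libraries were left out. The cause was not tested. Of all genes between TSPAN8-high and TSPAN8-low, 380 were higher and 239 lower, against 223 and 307 with the authors' normalized values, 250 and 300 with quantile normalization, 255 and 360 with a common median, 517 and 208 when scaled to genes other than the members, and 1313 and 818 with the block. For the named members, 626 of the values under alternatives kept their direction and side of the threshold, 56 newly passed, 24 no longer passed and 14 changed sign. The scaling to other genes and leaving out libraries with the block were chosen after seeing the data. With 3 libraries per group and unknown depth, differences of the size of the medians could not be resolved for single genes.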
